A study of Mus musculus with 16 samples.

Results

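The opioid genes of the striatum were followed in a mouse model of Huntington's disease (HD). They comprised the 3 opioid peptide precursor genes Penk, Pdyn and Pnoc and the 4 opioid receptor genes Oprm1, Oprd1, Oprk1 and Oprl1. These 7 genes were chosen by symbol from the 55450 genes of the deposited count table. A gene was kept for testing if 4 or more of the 16 libraries held 10 or more of its counts. This left 19363 genes, and all 7 opioid genes passed with 10 or more counts in every library. The counts came from RNA-seq of striatal mRNA of 16 untreated male mice of the C57Bl/6 background (C57BL/6J in the study's methods) aged 14 weeks, 1 library for each animal. There were 4 groups of 4 mice, “good” and “poor” performers among wild-type and likewise among R6/1 animals. R6/1 mice carry a transgene of exon 1 of human huntingtin with an expanded CAG repeat, so that they make a fragment of the mutant protein, and the wild-type mice were littermates without it. The words “good” and “poor” name the mice of each genotype at the upper and lower ends of scores for rotarod performance, feet clasping and body weight. All groups shared a period of single housing and the battery of behavioural tests before the tissue was taken, and the labels do not give the litter or cohort of a mouse.

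Opioid peptides are cut from larger precursor proteins and act on receptors that couple to inhibitory G proteins. In the striatum Penk is a classical product of the projection neurons of the indirect pathway, which carry the dopamine receptor Drd2, and Pdyn of those of the direct pathway, which carry Drd1. Enkephalins act mainly on the δ and μ receptors (Oprd1 and Oprm1), dynorphins on the κ receptor (Oprk1), and nociceptin, the product of Pnoc, on its own receptor (Oprl1).

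The peptides themselves can be read in the coding sequences, which show how the 3 precursors differ in the peptides they hold. In the GENCODE M21 transcripts (GRCm38, minus strand for all 3 genes), the coding sequence of Penk held 6 copies of Met-enkephalin and 1 of Leu-enkephalin, that of Pdyn held 3 copies of Leu-enkephalin, which open its 3 dynorphin-type peptides, and that of Pnoc held 1 nociceptin, which begins with a related stretch. The copies lie in exon 2 of 2 in Penk, exon 4 of 4 in Pdyn and exon 3 of 4 in Pnoc. The first Met-enkephalin and the Leu-enkephalin of Penk (chr4:4134328-4134354 and chr4:4133935-4133961), the 3 copies of Pdyn (chr2:129688232-129688258, chr2:129688124-129688150 and chr2:129688067-129688093) and the start of nociceptin (chr14:65404872-65404898) are shown because they are what the mRNA counted here encodes. Capitals mark the codons of the enkephalin core or of its counterpart in nociceptin, and the lower-case triplets beside them include the pairs of basic residues at which precursors are cut.
Penk Met-enkephalin: aagaagTACGGAGGCTTCATGaaacgg
Penk Leu-enkephalin: aagaggTATGGGGGCTTCCTGaagcgc
Pdyn first copy: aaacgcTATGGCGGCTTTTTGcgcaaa
Pdyn second copy: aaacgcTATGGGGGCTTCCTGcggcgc
Pdyn last copy: aagcgcTATGGTGGTTTCCTGcggcgt
Pnoc nociceptin: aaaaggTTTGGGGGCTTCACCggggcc

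Total counts ran from 16155356 to 24897354 per library. Markers of striatal projection neurons were high in every library, with summed levels from 4777 to 7729 counts scaled to library size (CPM) in wild-type “good”, 4952 to 6199 in wild-type “poor”, 1941 to 3201 in R6/1 “good” and 1303 to 1946 in R6/1 “poor” mice. Markers of cortical neurons, a region next to the dissected tissue, varied from 50.4 to 874 CPM, and their ranges overlapped between all groups. The column names number the libraries from 1 to 16, and the meaning of the numbers is not given. All 4 R6/1 “good” libraries had numbers from 1 to 8 and 3 of 4 R6/1 “poor” libraries numbers from 9 to 16, so that library number and performance in R6/1 mice can hardly be told apart.

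CPM per kilobase of exon (RPKM) gave the order of the genes in the 8 wild-type mice. Penk stood far above the others with a mean level of 921 RPKM (754.7 to 1178 in “good” and 732.7 to 1010 in “poor” mice). Pdyn followed at 51.7 RPKM and did not overlap with Penk. The receptors came next, Oprl1 at 10.4 RPKM, Oprd1 at 6.92 RPKM and Oprk1 at 4.97 RPKM, and neighbours in this order overlapped between mice. Pnoc had 1.82 RPKM, and its range (0.641 to 4.03 RPKM) reached into that of Oprk1. Oprm1 was lowest at 0.280 RPKM and did not overlap with any other member. In the 8 R6/1 mice the order was Penk (185 RPKM), Pdyn (25.4), Oprl1 (16.8), Pnoc (2.45), Oprk1 (2.35), Oprd1 (2.28) and Oprm1 (0.356). The place of Pnoc came from the R6/1 “poor” mice, with a mean of 3.81 RPKM, whereas in R6/1 “good” mice its 1.08 RPKM lay below Oprd1 (2.48) and Oprk1 (2.39). Within the R6/1 “poor” group the lowest Pdyn (17.2 RPKM) lay below the highest Oprl1 (23.6 RPKM).

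**Figure D1:**
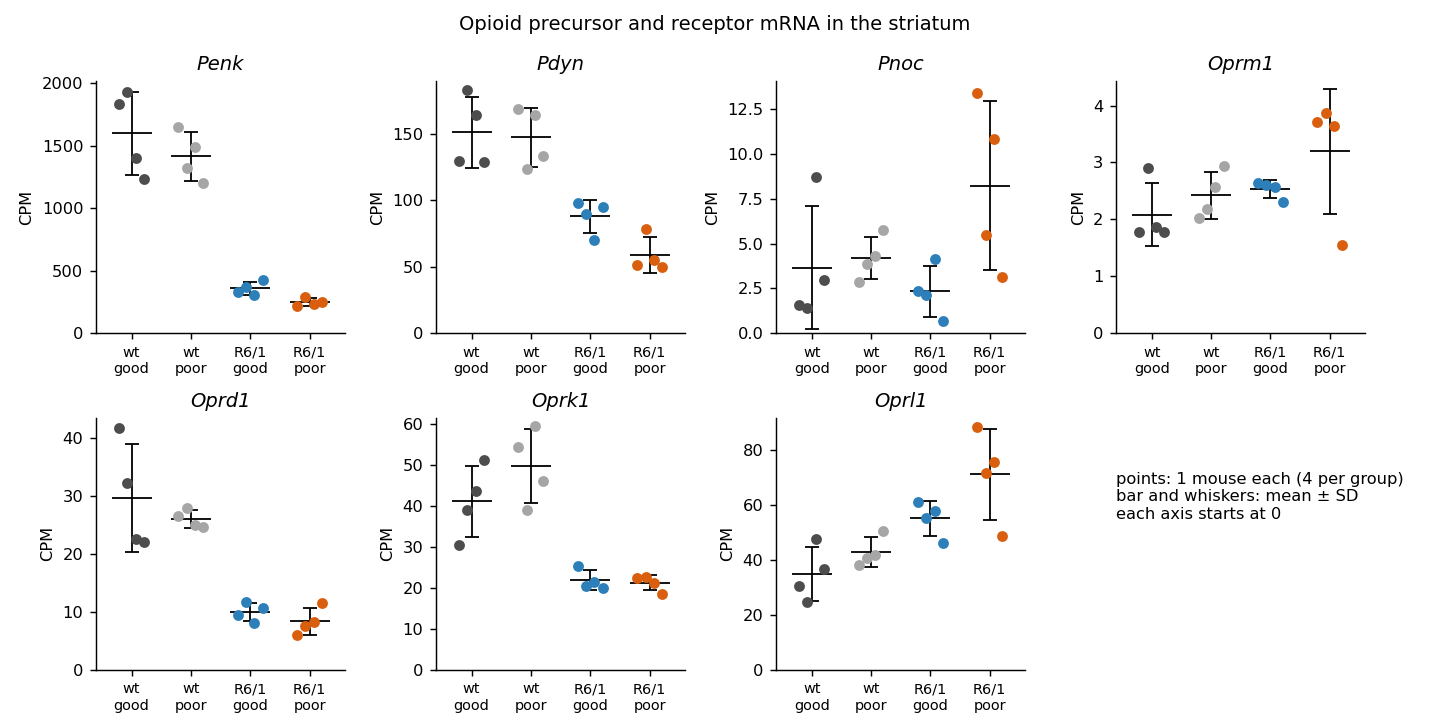
Level of each opioid gene in CPM (vertical axes, each from 0) for the 4 mice of each group (points), with the mean ± SD (bar and whiskers). Penk, Pdyn, Oprd1 and Oprk1 of all 8 R6/1 mice lie below those of all 8 wild-type mice, and Oprl1 is higher in the means of both R6/1 groups. Relative to its mean, Pnoc spreads widely in all groups but wild-type “poor”, and Oprm1 most in R6/1 “poor” mice.

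The first question was which opioid genes differed between R6/1 and wild-type mice. Each R6/1 group was set against the same 8 wild-type mice, so that both comparisons share their controls. In R6/1 “good” mice 4 of the 7 genes fell (Penk, Pdyn, Oprd1 and Oprk1) and 1 rose (Oprl1), while of all genes tested edgeR called 12.4% lower and 12.1% higher. In R6/1 “poor” mice the same 4 genes fell and the same gene rose, against 14.9% lower and 13.5% higher of all genes. With all 8 R6/1 mice the counts were again 4 lower and 1 higher, against 17% and 17.2% of all genes. The ranges of the 4 genes that fell did not overlap with wild-type mice in either R6/1 group, which held for 15.2% of all genes in R6/1 “good”, 16.1% in R6/1 “poor” and 9.07% with all R6/1 mice together. Within libraries 1 to 8 the same 5 genes passed in R6/1 “good” mice, beside 3594 of all 19363 genes. Within libraries 9 to 16 the 4 genes that fell passed in R6/1 “poor” mice, beside 3401 of all genes. Markers of striatal projection neurons moved with them, 7 of 7 lower in both R6/1 groups, with a median log2 fold change of -1.31 in “good” and -1.78 in “poor” mice, and their part in these results was not tested. In bulk tissue, fewer cells that make a transcript and less transcript per cell cannot be told apart.

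Penk (ENSMUSG00000045573, chr4:4133531-4138819, minus strand) encodes proenkephalin. It was at 1830, 1925, 1402 and 1233 CPM in wild-type “good” mice and at 1651, 1318, 1486 and 1197 CPM in wild-type “poor” mice. R6/1 “good” mice had 327, 371, 306 and 422 CPM, and R6/1 “poor” mice 214, 290, 236 and 251 CPM. Every R6/1 mouse was below every wild-type mouse, and every R6/1 “poor” mouse was below every R6/1 “good” mouse. The log2 fold change against wild-type mice was -2.08 ± 0.15 (SE, edgeR adjusted p = 1.90e-06) in R6/1 “good” mice, which left 23.7% of the wild-type level. In R6/1 “poor” mice it was -2.60 ± 0.15 (SE, edgeR adjusted p = 3.75e-07), leaving 16.5%. Among the 19363 genes Penk had the 78th and the 58th lowest fold change of these comparisons. The noncoding gene A830012C17Rik overlaps 233 exon bases of Penk on the other strand, but its counts over all libraries (1489) were few beside those of Penk (304845).

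Pdyn (ENSMUSG00000027400, chr2:129686565-129699844, minus strand) encodes prodynorphin. Its levels were 129, 183, 164 and 129 CPM in wild-type “good” and 168, 124, 164 and 133 CPM in wild-type “poor” mice. They were 97.6, 89.7, 69.9 and 94.8 CPM in R6/1 “good” and 51.3, 78.7, 55.1 and 49.8 CPM in R6/1 “poor” mice. Both R6/1 groups lay below the wild-type range, and among R6/1 mice the highest “poor” mouse was above the lowest “good” mouse. Pdyn fell by a log2 fold change of -0.76 ± 0.12 (SE, edgeR adjusted p = 0.000526) in R6/1 “good” mice and of -1.35 ± 0.14 (SE, edgeR adjusted p = 2.95e-05) in R6/1 “poor” mice, to 58.9% and 39.3% of the wild-type level.

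Pnoc (ENSMUSG00000045731, chr14:65400673-65425472, minus strand), the precursor gene of nociceptin, did not pass the test. Wild-type “good” mice had 1.57, 1.38, 8.69 and 2.96 CPM and wild-type “poor” mice 2.87, 3.87, 4.33 and 5.73 CPM. In R6/1 “good” mice it was at 2.35, 2.11, 4.15 and 0.699 CPM, and in R6/1 “poor” mice at 13.4, 5.50, 10.8 and 3.15 CPM. The groups overlapped, with the 2 highest mice of all 16 among the R6/1 “poor” ones. The log2 fold change was -0.77 ± 0.52 (SE, edgeR adjusted p = 0.304) in R6/1 “good” and 1.06 ± 0.46 (SE, edgeR adjusted p = 0.107) in R6/1 “poor” mice. Without the third wild-type “good” mouse the value in R6/1 “poor” mice was 1.33 (edgeR adjusted p = 0.0312), and without the fourth R6/1 “poor” mouse also 1.33 (edgeR adjusted p = 0.0466). Pnoc rested on 14 to 314 counts per library.

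Oprd1 (ENSMUSG00000050511, chr4:132110726-132144486, minus strand), the δ receptor gene, was at 41.6, 32.3, 22.6 and 22.05 CPM in wild-type “good” and at 26.6, 27.9, 24.9 and 24.6 CPM in wild-type “poor” mice. It was at 9.46, 11.7, 8.12 and 10.7 CPM in R6/1 “good” and at 6.03, 7.48, 8.27 and 11.5 CPM in R6/1 “poor” mice. No R6/1 mouse reached the lowest wild-type mouse, and the R6/1 groups overlapped with each other. Oprd1 fell by a log2 fold change of -1.47 ± 0.17 (SE, edgeR adjusted p = 4.64e-05) in R6/1 “good” and of -1.74 ± 0.20 (SE, edgeR adjusted p = 4.99e-05) in R6/1 “poor” mice, which left 36.0% and 30.0% of the wild-type level. It was the receptor gene with the lowest fold change in both comparisons.

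Oprk1 (ENSMUSG00000025905, chr1:5588466-5606131, plus strand) encodes the κ receptor for dynorphins. Its values were 30.6, 39.0, 43.8 and 51.3 CPM in wild-type “good” and 54.4, 39.0, 59.6 and 46.2 CPM in wild-type “poor” mice. R6/1 “good” mice had 25.4, 20.4, 21.6 and 19.98 CPM and R6/1 “poor” mice 22.4, 22.6, 21.3 and 18.6 CPM. The R6/1 values formed a narrow band below all wild-type mice. The log2 fold change was -1.06 ± 0.15 (SE, edgeR adjusted p = 0.000304) in R6/1 “good” and -1.10 ± 0.15 (SE, edgeR adjusted p = 0.000163) in R6/1 “poor” mice.

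Oprl1 (ENSMUSG00000027584, chr2:181715016-181720985, plus strand), the nociceptin receptor gene, was the member that rose. It was at 30.6, 24.7, 47.7 and 36.8 CPM in wild-type “good” and at 38.3, 40.7, 41.8 and 50.7 CPM in wild-type “poor” mice. R6/1 “good” mice had 61.1, 55.4, 57.8 and 46.3 CPM and R6/1 “poor” mice 88.6, 71.7, 75.9 and 48.9 CPM. In each R6/1 group 3 of 4 mice were above every wild-type mouse and the fourth mouse was within the wild-type range. The log2 fold change was 0.50 ± 0.15 (SE, edgeR adjusted p = 0.0300) in R6/1 “good” and 0.87 ± 0.18 (SE, edgeR adjusted p = 0.00288) in R6/1 “poor” mice. The call in R6/1 “good” mice was lost without R6/1 “good” mouse 1, 2 or 3 (edgeR adjusted p from 0.0698 to 0.0924) and with no filter on low counts (edgeR adjusted p = 0.105). That in R6/1 “poor” mice was lost within libraries 9 to 16, at a log2 fold change of 0.79 (edgeR adjusted p = 0.0580).

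Oprm1 (ENSMUSG00000000766, chr10:6758506-7038198, plus strand), the μ receptor gene, did not pass the test. It was at 1.77, 2.90, 1.87 and 1.77 CPM in wild-type “good” and at 2.02, 2.18, 2.57 and 2.93 CPM in wild-type “poor” mice. It was at 2.65, 2.60, 2.57 and 2.30 CPM in R6/1 “good” and at 3.72, 3.86, 3.65 and 1.55 CPM in R6/1 “poor” mice. Thus 3 R6/1 “poor” mice were the highest of all 16 and the other was the lowest. The log2 fold change was 0.16 ± 0.18 (SE, edgeR adjusted p = 0.539) in R6/1 “good” and 0.50 ± 0.23 (SE, edgeR adjusted p = 0.119) in R6/1 “poor” mice. Without R6/1 “poor” mouse 4 the latter was 0.73 (edgeR adjusted p = 0.00874). With 33 to 90 counts per library the gene was near the limit of the table, and Ipcef1, which shares 96 exon bases with it on the other strand, had 10039 counts in all against 877 of Oprm1.

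**Figure D2:**
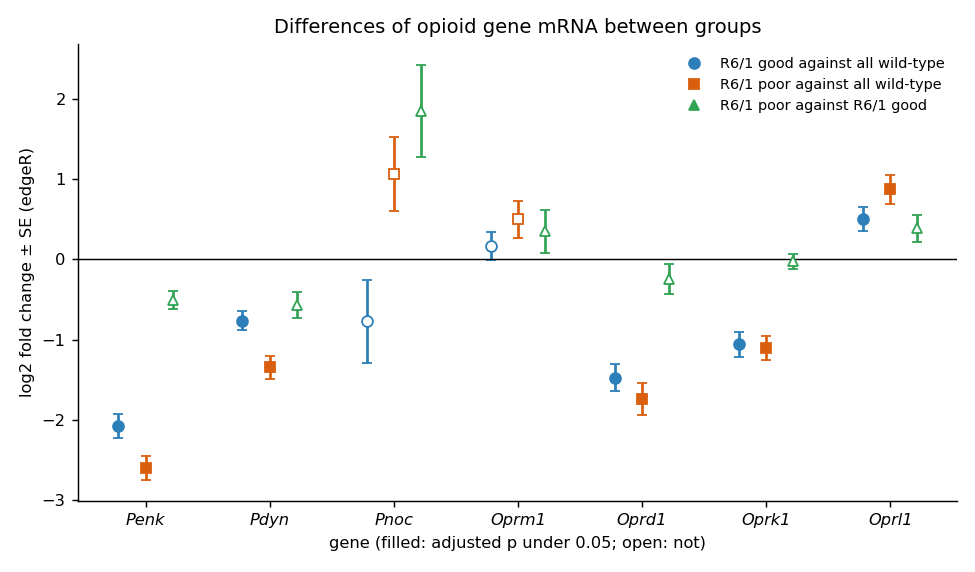
Log2 fold change ± SE by edgeR (vertical axis) of each opioid gene (horizontal axis) in R6/1 “good” (circles) and R6/1 “poor” mice (squares) against all wild-type mice and in R6/1 “poor” against R6/1 “good” mice (triangles). Filled symbols have an adjusted p under 0.05, which the 4 genes that fell and Oprl1 have in both comparisons with wild-type mice and no gene has between the R6/1 groups.

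RefSeq (GRCm38.p6) gave promoter sequences for 4 of the 7 members, Pdyn, Oprd1, Oprl1 and Oprm1. The 250 bases before the annotated start are shown for genes that fell (Pdyn, chr2:129699939-129700188, minus strand, and Oprd1, chr4:132144487-132144736, minus strand) and for the gene that rose (Oprl1, chr2:181714766-181715015, plus strand), for the first start of the table where it has several. Capitals mark matches to the motifs searched on both strands, the cAMP response element (TGACGTCA), its shorter form (CGTCA), the AP-1 motif (TGACTCA), the CCAAT box (CCAAT), the TATA box (TATAAA) and the GC box (GGGCGG).
Pdyn: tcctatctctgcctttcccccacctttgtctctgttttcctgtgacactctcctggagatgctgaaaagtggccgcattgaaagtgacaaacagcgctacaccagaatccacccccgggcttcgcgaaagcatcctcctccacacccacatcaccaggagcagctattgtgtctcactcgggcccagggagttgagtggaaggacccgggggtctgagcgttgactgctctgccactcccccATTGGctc
Oprd1: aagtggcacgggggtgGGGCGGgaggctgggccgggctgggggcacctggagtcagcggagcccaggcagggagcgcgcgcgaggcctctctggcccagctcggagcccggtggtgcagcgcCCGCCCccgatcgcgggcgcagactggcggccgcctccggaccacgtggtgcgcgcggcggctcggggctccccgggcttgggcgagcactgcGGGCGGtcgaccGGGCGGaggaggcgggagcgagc
Oprl1: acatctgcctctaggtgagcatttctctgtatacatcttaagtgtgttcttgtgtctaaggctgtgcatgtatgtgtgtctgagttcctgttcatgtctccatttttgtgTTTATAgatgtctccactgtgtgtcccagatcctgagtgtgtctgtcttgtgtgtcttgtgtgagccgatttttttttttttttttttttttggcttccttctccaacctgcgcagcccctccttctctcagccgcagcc

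Oprd1 held 4 GC boxes, a motif found in 32.7% of the 32851 promoters of the table. Pdyn held 1 CCAAT box, found in 33.8%, and this Oprl1 promoter 1 TATA box, found in 12.4%. None of these 3 windows held the cAMP response element (1.55% of all promoters), its shorter form (17.8%) or the AP-1 motif (4.46%). A match is no evidence of binding, and no match says only that the letters are absent from this window.

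The second question was whether “poor” and “good” performers of 1 genotype differed. Between R6/1 “poor” and “good” mice edgeR called 0 of the 7 opioid genes, as it called 0% of all genes, although 4 members had an unadjusted p under 0.05. DESeq2, the tool the study used, called 2 members, both lower in “poor” mice, where it called 0.666% of all genes lower and 1.17% higher. These were Penk (log2 fold change -0.51, DESeq2 adjusted p = 0.00967) and Pdyn (log2 fold change -0.57, DESeq2 adjusted p = 0.0282). By edgeR the same differences were -0.51 ± 0.12 (SE, adjusted p = 0.248) for Penk and -0.57 ± 0.16 (SE, adjusted p = 0.248) for Pdyn. Penk was the only member whose ranges did not overlap between the R6/1 groups, which held for 6.45% of all genes. The study had measured Penk by RT-qPCR in mice of the same cohorts before, so that its direction here is no independent choice.

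The other members with an unadjusted p under 0.05 were higher in R6/1 “poor” than in “good” mice, Pnoc by 1.85 ± 0.58 (log2, SE, edgeR adjusted p = 0.255) and Oprl1 by 0.39 ± 0.17 (log2, SE, edgeR adjusted p = 0.316). For the remaining receptors the 95% intervals of the log2 difference ran from -0.24 to 0.94 for Oprm1, from -0.67 to 0.18 for Oprd1 and from -0.24 to 0.19 for Oprk1. Oprk1 thus had the narrowest interval, and a difference of the size seen for Penk lay outside it. Within libraries 1 to 8, which hold 1 R6/1 “poor” and 4 R6/1 “good” mice, the edgeR log2 difference was -0.28 for Penk, -0.15 for Pdyn, 1.26 for Pnoc and 0.39 for Oprl1, and none passed the test. The lone “poor” mouse is assumed there to vary like the others.

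In wild-type mice, edgeR called 0 members between “poor” and “good” performers and 0% of all genes, 0 members had an unadjusted p under 0.05, and DESeq2 called 0. No member had ranges apart, compared with 1.78% of all genes. The log2 differences of the 7 genes ran from -0.19 (Oprd1) to 0.30 (Oprl1), with 95% intervals from -0.50 to 0.15 for Penk and from -0.34 to 0.27 for Pdyn. The interaction of genotype and performance asks whether the performance difference itself differed between the genotypes. It was called for 0 members and 0% of all genes by edgeR, with 1 member, Pdyn, at an unadjusted p of 0.0288 (log2 difference -0.55 ± 0.23, SE, edgeR adjusted p = 0.826), and DESeq2 called 0.

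Ratios within a mouse hardly depend on the scaling between libraries. The log2 ratio of Penk to Pdyn was 3.39 ± 0.31 (SD, n = 4) in wild-type “good”, 3.26 ± 0.12 in wild-type “poor”, 2.02 ± 0.19 in R6/1 “good” and 2.09 ± 0.18 in R6/1 “poor” mice. The highest R6/1 mouse (2.33) was below the lowest wild-type mouse (3.10), and the difference of -1.27 passed a 2-sided exact permutation test (p = 0.000155, the smallest the 12870 divisions allow, adjusted over 9 such tests 0.000699). Wild-type “poor” and “good” mice differed in this ratio by -0.13, within their spread (exact permutation p = 0.571). R6/1 “poor” and “good” mice differed by 0.07 (exact permutation p = 0.6), also within their spread. With 4 against 4 mice the smallest p such a test can give is 0.0286, before adjustment over the 9 tests.

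Penk was next set against the mean of 3 of the 4 tested markers of the indirect pathway, Drd2, the adenosine receptor Adora2a and the orphan receptor Gpr6. The log2 ratio was 3.04 ± 0.15 (SD, n = 4) in wild-type “good”, 3.03 ± 0.05 in wild-type “poor”, 2.45 ± 0.19 in R6/1 “good” and 2.67 ± 0.28 in R6/1 “poor” mice. No R6/1 mouse reached a wild-type mouse, and the difference of -0.48 had an exact permutation p of 0.000155 (adjusted 0.000699). R6/1 “poor” and “good” mice differed by 0.22 (exact permutation p = 0.229, adjusted 0.411), and wild-type “poor” and “good” mice by -0.002. With all R6/1 mice these markers fell by log2 fold changes of -2.13 for Adora2a, -1.66 for Drd2 and -1.61 for Gpr6, beside -2.32 for Penk. The transcription factor Sp9, the remaining marker, had -0.36 and did not pass the test (edgeR adjusted p = 0.0539), and with it in the mean the difference in the ratio was -0.85 (adjusted exact permutation p = 0.000699). Penk thus fell further than the mean of the markers but not further than each of them, since in R6/1 “poor” mice Adora2a and Penk both had a log2 fold change of -2.60.

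Pdyn was set against Drd1, the transcription factor Isl1 and the muscarinic receptor Chrm4, 3 of the 5 tested markers of the direct pathway. Its log2 ratio was 1.32 ± 0.20 (SD, n = 4) in wild-type “good”, 1.24 ± 0.09 in wild-type “poor”, 1.28 ± 0.16 in R6/1 “good” and 0.99 ± 0.16 in R6/1 “poor” mice. The groups overlapped, and the difference of all R6/1 from all wild-type mice was -0.15 (exact permutation p = 0.124, adjusted 0.279). R6/1 “poor” and “good” mice differed by -0.28 (exact permutation p = 0.0857, adjusted 0.257), and wild-type “poor” and “good” mice by -0.08 (exact permutation p = 0.457). The 3 markers did not move alike, with log2 fold changes of -1.39 for Drd1, -1.47 for Chrm4 and 0.19 for Isl1, the last not passing the test (edgeR adjusted p = 0.199), beside -1.03 for Pdyn. The other markers, the substance P precursor gene Tac1 and Slc35d3, fell by -0.44 and -0.87 (edgeR adjusted p = 0.0197 and 0.000108). With all 5 markers in the mean the difference in the ratio was -0.24 and passed the test (adjusted exact permutation p = 0.0471), so that the call depended on the markers taken. Within libraries 9 to 16, where all 3 R6/1 mice were “poor”, the difference was -0.37 (adjusted exact permutation p = 0.0357). Within libraries 1 to 8, with 4 R6/1 “good” mice and 1 “poor” mouse, it was 0.0025. Library number and performance thus cannot be told apart in this split.

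**Figure D3:**
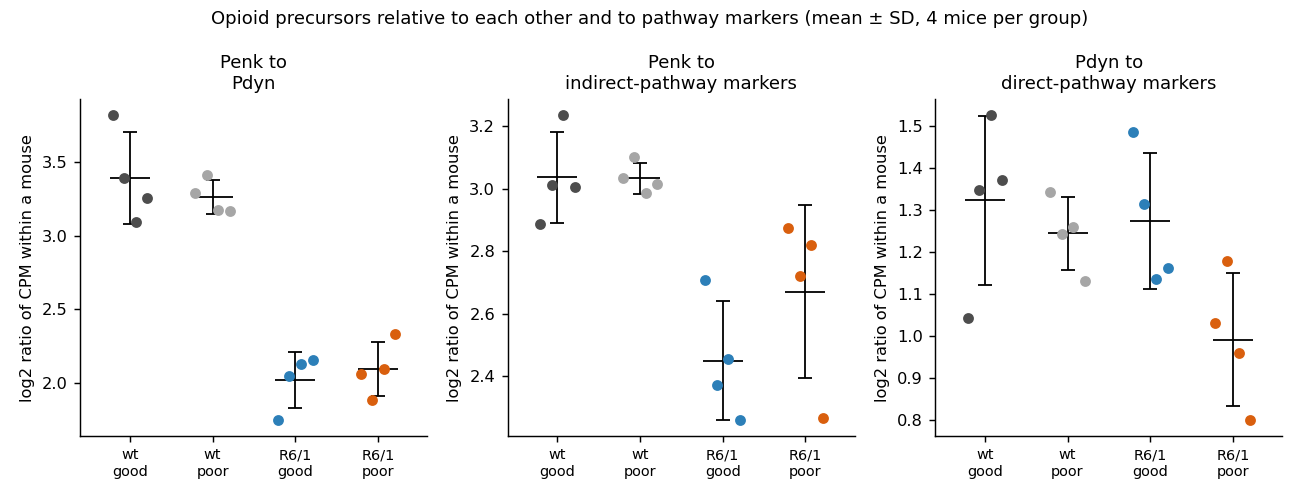
Log2 ratio of CPM within a mouse (vertical axes, not from 0) of Penk to Pdyn, of Penk to Drd2, Adora2a and Gpr6, and of Pdyn to Drd1, Isl1 and Chrm4, for the 4 mice of each group (points) with mean ± SD. The first ratios are lower in all R6/1 than in all wild-type mice, and the last overlaps between the genotypes.

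Markers of neighbouring regions were compared between R6/1 “poor” and “good” mice beside Pnoc and Oprl1, and none of these markers passed the test there. Of the listed hypothalamic markers 7 of 10 passed the filter, and all 7 had a positive log2 difference between R6/1 “poor” and “good” mice, with a median of 2.18, while Oxt, Hcrt and Pmch were below the filter. The differences were uneven, 4.31 for Avp, 3.69 for Otp, 2.86 for Sim1 and 2.18 for Trh, but 0.52 for Nkx2-1, 0.18 for Pomc and 0.06 for Agrp. Avp was at 0 counts in 3 libraries, Otp in 2 and Sim1 in 6. Against wild-type mice 2 of the 7 were called higher in R6/1 “poor” mice (Sim1 and Otp), as were 13.5% of all genes. In that comparison Pomc (-0.16) and Nkx2-1 (-0.28) had negative log2 fold changes. Their summed level was 41.7, 11.7, 28.6 and 6.01 CPM in R6/1 “poor” mice 1 to 4 and 5.29 to 9.52 CPM in R6/1 “good” mice, against 7.74 to 17.8 CPM in wild-type “good” and 12.5 to 16.9 CPM in wild-type “poor” mice. Pnoc had its highest values in the same R6/1 “poor” mice, 1 and 3, and its lowest there in mouse 4.

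Markers of the lateral septum, where Pnoc is also made, were positive in 7 of 7 (median 1.12). Of these, 4 were called higher in R6/1 “poor” than in wild-type mice, against 13.5% of all genes. Their summed levels were 237, 89.5, 178 and 51.2 CPM in R6/1 “poor” mice 1 to 4. The sums of all 7 were at 43.5 to 92.5 CPM in R6/1 “good”, 48.1 to 117 CPM in wild-type “good” and 57.2 to 117 CPM in wild-type “poor” mice. Markers of cortical neurons were positive in 10 of 10 (median 0.68). R6/1 “poor” mouse 4, lowest of its group in Pnoc, Oprm1 and Oprl1, had the highest cortical sum (874 CPM). Among markers of ependymal cells 6 of 6 were positive (median 0.57), and among those of the claustrum and endopiriform nucleus 2 of 4 (median -0.05). The median of all genes in this comparison was -0.00. In R6/1 “good” mice the hypothalamic and septal sums did not exceed the wild-type range. The part of these regions in the levels of Pnoc, Oprm1 and Oprl1 was not tested in either R6/1 group.

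**Figure D4:**
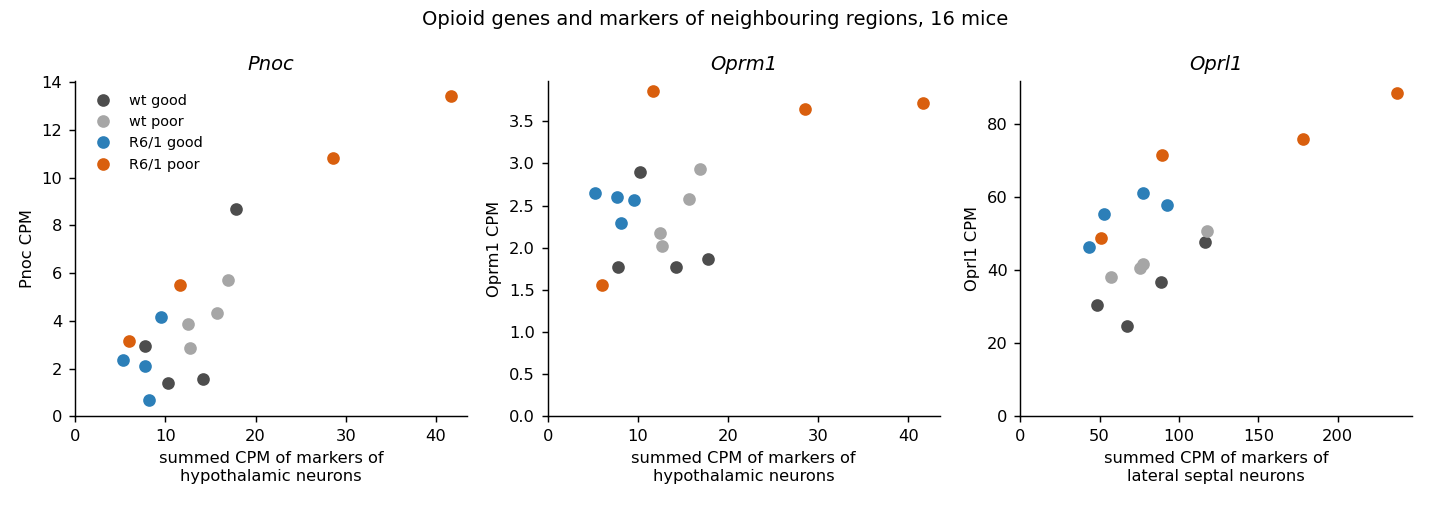
CPM of Pnoc and Oprm1 (vertical axes) against the summed CPM of hypothalamic markers, and of Oprl1 against that of lateral septal markers (horizontal axes), for all 16 mice, coloured by group. The R6/1 “poor” mice 1 and 3 lie furthest to the right in all panels and have the highest Pnoc. The marker sums of R6/1 “good” mice do not exceed the wild-type range. The relation of the genes to the sums was not tested.

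The other genes of opioid signalling were taken from 6 lists and compared with all wild-type mice, where the median log2 fold change of all genes was 0.01 in R6/1 “good” and 0.00 in R6/1 “poor” mice. The counts below stand against 12.4% of all genes lower and 12.1% higher in “good” and 14.9% lower and 13.5% higher in “poor” mice, and a share near these is no result about a list. Between R6/1 “poor” and “good” mice edgeR called none of their members, as it called 0% of all genes, so that this is no result about a list. The study, with DESeq2, did report Nfya and Tac1 among the genes related to performance in R6/1 mice. Of 14 genes of peptide processing, 6 were lower and 3 higher in R6/1 “good” mice (median -0.15), and 2 lower and 4 higher in R6/1 “poor” mice (median 0.05). Scg5, the chaperone of the prohormone convertase PC2, rose from 166 ± 9.05 CPM in wild-type “good” mice to 252 ± 19.3 in R6/1 “good” and 240 ± 11.6 in R6/1 “poor” mice (SD, n = 4; edgeR adjusted p = 6.76e-06 and 1.32e-05). Cpe, the carboxypeptidase that trims the basic residues left by cleavage, fell in both groups, by log2 fold changes of -0.37 (edgeR adjusted p = 0.000304) and -0.25 (edgeR adjusted p = 0.0124). Vgf, a granin-like protein of secretory granules, fell in R6/1 “good” mice (-0.91, edgeR adjusted p = 0.000634) and was at -0.43 in R6/1 “poor” mice (edgeR adjusted p = 0.0951).

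Of 9 genes of peptide breakdown, 2 were lower and 1 higher in R6/1 “good” mice (median -0.08) and 5 lower and 1 higher in R6/1 “poor” mice (median -0.28). Mme, or neprilysin, which cleaves enkephalins, was at a log2 fold change of -0.32 in R6/1 “good” (edgeR adjusted p = 0.183) and fell in R6/1 “poor” mice (-0.64, edgeR adjusted p = 0.00746). The endothelin-converting enzyme genes moved apart, Ece1 falling (-0.24 and -0.32, edgeR adjusted p = 0.0263 and 0.00359) and Ece2 rising (0.66 and 0.62, edgeR adjusted p = 0.000987 and 0.00872).

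Of 24 genes of G proteins and their regulators, 11 were lower in each R6/1 group, and 2 were higher in “good” and 5 in “poor” mice (medians -0.12 and -0.02). The lowest values were those of Rgs9 and Rgs4, which belong to the RGS proteins that end G protein signalling. Rgs9 fell from 531 ± 121 and 494 ± 71.0 CPM in wild-type “good” and “poor” mice to 173 ± 51.5 and 112 ± 23.7 CPM in R6/1 “good” and “poor” mice (SD, n = 4; edgeR adjusted p = 9.35e-05 and 4.00e-06). Rgs4 fell by log2 fold changes of -1.36 and -1.95 (edgeR adjusted p = 0.00138 and 9.30e-05), and Gng7, a γ subunit of striatal projection neurons, by -0.79 and -1.39 (edgeR adjusted p = 0.0114 and 0.000200).

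Of 17 receptor effectors, 5 were lower and 1 higher in R6/1 “good” and 6 lower and 1 higher in R6/1 “poor” mice (medians -0.13 and -0.09). Adcy5, the adenylyl cyclase of striatal neurons that opioid receptors inhibit, fell by -1.31 and -1.78 (edgeR adjusted p = 4.12e-05 and 4.00e-06). The calcium channel genes Cacna1e and Cacna1b went apart, the first lower (-0.42 and -0.57, edgeR adjusted p = 0.00239 and 0.000110) and the second higher (0.37 and 0.24, edgeR adjusted p = 0.00194 and 0.0253).

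Of 16 transcription factors linked to the precursor genes, 8 were lower and 2 higher in R6/1 “good” and 5 lower and 2 higher in R6/1 “poor” mice (medians -0.54 and -0.33). Nfya, a subunit of the factor that binds CCAAT boxes, rose by 0.89 and 0.58 (edgeR adjusted p = 3.28e-05 and 0.00102). Foxp1 fell by -0.61 and -1.09 (edgeR adjusted p = 0.00503 and 9.91e-05), and Jun, an AP-1 subunit, by -0.61 in “good” mice (edgeR adjusted p = 0.000426), with -0.25 in “poor” mice (edgeR adjusted p = 0.153). Rgs9, Adcy5 and Foxp1 are also markers of the projection neurons, of which 7 of 7 were lower in both R6/1 groups.

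Of 21 other neuropeptide precursors 18 passed the filter, and 4 were lower and 0 higher in R6/1 “good” mice (median -0.77), 3 lower and 1 higher in R6/1 “poor” mice (median -0.03), where the share lower was near that of all genes. The interneuron peptides Sst and Npy fell in both groups, Sst by -0.78 and -0.79 (edgeR adjusted p = 7.73e-06 and 0.000341) and Npy by -0.69 and -1.11 (edgeR adjusted p = 0.000521 and 0.000889). Trh, thyrotropin-releasing hormone, fell in R6/1 “good” mice (-1.27, edgeR adjusted p = 0.000625) and spread from 1.76 to 23.8 CPM in R6/1 “poor” mice (0.89, edgeR adjusted p = 0.232). Trh is also among the hypothalamic markers above.

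The genes most like each changed member over the 16 mice were found by the root mean square (RMS) difference of log2 CPM centred on the wild-type mean, among 14444 genes. For Penk they were Hipk4, Car12 and Ddit4l (RMS 0.227 to 0.249, against a median of 1.70 over all genes). For Pdyn they were Fam184b, Cacna2d3 and Pcp4l1 (RMS 0.183 to 0.232, median 0.845), and for Oprk1 Igsf9, Cntnap3 and Gpr55 (RMS 0.221 to 0.243, median 0.816). Gpr161, Rwdd2a and Glra2 were nearest to Oprl1 (RMS 0.114 to 0.137, median 0.597). The smallest difference among these 5 members was that of Oprd1 to the transcript Gm37711 (RMS 0.0987, median 1.20), followed by Camk2n1 and Arpp19. All these genes were picked for a small difference, so that lying below the median follows from the choice and is no evidence of shared regulation.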

How the data were processed

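The authors made stranded mRNA libraries (TruSeq), sequenced 75-bp paired-end reads and mapped them to GRCm38 with TopHat 1.0.1; the submitters' notes also name CASAVA and Bowtie. The deposited values are raw counts per gene, whole numbers without normalization. The sources used here do not give the read counter, strand setting or annotation release, so reads of overlapping genes on opposite strands may be shared.

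The members, the lists and the tests were chosen with earlier results of these data known. Genes were kept if 4 or more libraries held 10 or more counts, and TMM factors gave CPM and, with exon lengths of GENCODE M21, RPKM. Each comparison was tested with edgeR 4.0.16 (robust quasi-likelihood test, R 4.3.3) and Benjamini-Hochberg adjustment over all 19363 genes at a threshold of 0.05. The procedure was tested on simulated data. The text names all members, the 3 genes nearest to each member called with all R6/1 mice (average log2 CPM of at least 1), up to 3 called genes of each pathway list with the smallest p, and the 6 markers of the ratios; Sp9, Tac1 and Slc35d3, the remaining tested markers of those pathways, were added after their values were seen. Ratios used a prior count of 2 and exact permutation tests (scipy 1.17.1, Python 3.11.15). Replicates are separate mice. The alternatives were DESeq2 1.42.0, RLE factors, no filter or 50 counts, the replicate number as a block, library number as a covariate or split, 1 fit of all groups, controls of the same performance, a prior count of 0.5 and leaving out each mouse, and, chosen after seeing the data, ratios to all tested markers of a pathway. Same-numbered mice were not paired by the labels, and 8 of 24 pairs correlated above 0.1 (lowest -0.55, highest 0.36), as did 29 of 72 pairs with different numbers. Of 175 list entries 2 had no match. RT-qPCR and behaviour were not analysed here.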

Additional observations from a re-analysis of the deposited data

Results flagged for a closer look

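Of 40 groups of 4 mice tested for a value far from the others by Dixon's ratio of gap to range (95% critical value for 4 samples), 2 were found, and chance gives about 1 in 20. Both concern Oprm1, the member with the fewest counts. In wild-type “good” mice the second mouse stood at 2.90 CPM, with a gap of 0.919 of the range. In R6/1 “poor” mice the fourth stood at 1.55 CPM, below the other 3, with a gap of 0.907 of the range. That mouse was also the lowest of its group in Pnoc (3.15 CPM), Oprl1 (48.9 CPM), and the hypothalamic (6.01 CPM) and lateral septal (51.2 CPM) sums, and the highest in the cortical sum (874 CPM).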

How the results depend on the processing

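Of 239 values of the counts and ratios under the alternatives, 224 were rated the same as the main result. A ratio so rated kept its direction and side of the threshold, but a count could shift a little. The 5 for R6/1 “poor” against wild-type mice was rated the same at 4 within libraries 9 to 16, where 3401 of all genes were called. Of 854 fold changes of single members 816 kept their direction and side of the threshold. Between R6/1 “poor” and “good” mice the count of 0 became 2 with DESeq2 (Penk and Pdyn), which called 356 of all genes. It was 1 with the replicate block (Pnoc, edgeR adjusted p = 0.0300), where 96 of all genes were called. It ran from 0 to 1 when 1 mouse was left out. The 1 came without R6/1 “poor” mouse 2 (Pdyn, edgeR adjusted p = 0.0387), where 61 of all genes were called. The replicate block changed no other count. The count of 5 for R6/1 “poor” against wild-type mice rose to 7 without R6/1 “poor” mouse 4. Within libraries 1 to 8 only 1 R6/1 “poor” mouse remained, too few for a count of calls. The log2 fold changes there were -2.44 for Penk, -0.86 for Pdyn, -2.01 for Oprd1, -1.01 for Oprk1 and 1.02 for Oprl1. Within libraries 1 to 8 the ratio of Penk to Pdyn differed by -1.47 and that of Penk to indirect-pathway markers by -0.47 (both adjusted exact permutation p = 0.0536). In both, every R6/1 mouse there lay below every wild-type mouse, so that with these few mice the test could give no smaller unadjusted p. The ratio of Pdyn to direct-pathway markers differed there by 0.0025. Within libraries 9 to 16, where the R6/1 mice were all “poor”, the ratio of Pdyn to direct-pathway markers differed by -0.37 (adjusted exact permutation p = 0.0357). With all tested markers in place of 3, a choice made after seeing the data, the difference of that ratio over all libraries was -0.24 (adjusted exact permutation p = 0.0471). Leaving out 1 mouse, the ratio of Penk to Pdyn ran from -0.23 to 0.012 between wild-type groups and from -0.017 to 0.14 between R6/1 groups, and that of Penk to indirect-pathway markers from -0.052 to 0.065 between wild-type groups.

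Single members also turned. Between R6/1 groups Oprk1 was 0.0592 within libraries 1 to 8 and with the library set (1 to 8 or 9 to 16) as a covariate. These are 1 estimate, since all R6/1 “good” mice lie in libraries 1 to 8, and it rests on the 1 R6/1 “poor” mouse there. With 1 mouse left out, the Oprk1 difference ran from -0.068 to 0.055. Between wild-type groups Penk was 0.11 and Pdyn 0.38 within libraries 1 to 8, and Pnoc -0.12 within libraries 9 to 16. With 1 mouse left out, the wild-type difference ran from -0.11 to 0.069 for Pdyn, from -0.078 to 1.10 for Pnoc and from -0.31 to 0.018 for Oprd1. The interaction ran from -0.077 to 0.34 for Oprm1, from -0.27 to 0.060 for Oprd1 and from -0.10 to 0.23 for Oprl1. None of these passed the test. Oprl1 lost its call in R6/1 “good” mice with no filter on low counts (edgeR adjusted p = 0.105), and within libraries 9 to 16 with R6/1 “poor” mice (0.79, edgeR adjusted p = 0.0580). Oprm1 passed with all R6/1 mice without R6/1 “poor” mouse 4 (0.44, edgeR adjusted p = 0.0445). Members under 100 counts, Oprm1 and mostly Pnoc, are limited by depth. Where the cause of a change is not stated, the cause was not tested.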

Other observations

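Gm37711, the gene most like Oprd1, is annotated as a transcript to be experimentally checked (biotype TEC) at chr4:132104830-132109363 of GRCm38. It lies on the strand of Oprd1 and begins 1362 bases past the annotated end of that gene. Its levels were 14.97 ± 3.89 and 13.2 ± 1.25 CPM in wild-type “good” and “poor” mice and 5.18 ± 1.08 and 4.13 ± 1.22 CPM in R6/1 “good” and “poor” mice (SD, n = 4). Whether its reads belong to a longer Oprd1 transcript was not tested.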
